A study of Mus musculus with 10 samples.

Results

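The genes for the proteins of the cytoplasmic ribosome were examined for chromatin bound by the HA-tagged SET isoforms SETα and SETβ in mouse embryonic stem cells. Members were the protein-coding genes whose symbols begin with Rpl or Rps followed by a digit, together with Rplp0, Rplp1, Rplp2 and Rpsa. Ribosomal S6 kinases, Rps27l and pseudogenes were left out. The rule gave 88 genes, of which 78 were analysed, among 19232 protein-coding genes. The other 10 lie on chromosomes 8 and 11, which were not analysed here. By symbol, 46 of the 78 belong to the large subunit and 32 to the small subunit. Of these, 9 are paralogs of another member (Rpl3l, Rpl7l1, Rpl10l, Rpl22l1, Rpl32l, Rpl36al, Rpl37rt, Rpl39l and Rps27rt). Rps19bp1 meets the rule by its symbol but encodes a binding partner of the small-subunit protein Rps19 and is not itself a ribosomal protein.

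KH2 embryonic stem cells, built to take 1 doxycycline-inducible transgene at a fixed site, carried the plasmid pBS31-HA-SETa or pBS31-HA-SETb and received doxycycline at 1 µg/ml for 24 h. The labels give the cells as SET-KO, lacking endogenous SET (called addback below), or as SET WT, keeping it (called overexpression). The 4 groups were thus SETα addback, SETβ addback, SETα overexpression and SETβ overexpression, with 2 libraries each. Cells had grown on mouse embryonic fibroblast feeders, which were depleted before crosslinking with DSG and then formaldehyde. Per the labels every group has its own cell line, and the effects of line and group therefore cannot be told apart. The labels do not say that replicates were separate cultures, so p-values measure only the spread between these libraries. Peak lists of 8 libraries of the 10 samples were used. The remaining 2, from SET-KO cells that got no doxycycline, were not analysed here, and no value stands beside a background measured in cells without the tagged protein.

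Ribosomal proteins assemble with ribosomal RNA in the nucleolus into a small subunit, which reads the messenger RNA, and a large subunit, which forms the peptide bond. Their genes are short and transcribed at high levels in dividing cells, many introns host small nucleolar RNAs (snoRNAs), and the transcripts often start in a pyrimidine tract (TOP motif) through which translation is tuned to nutrient supply. Mammalian genomes also hold many processed pseudogenes of these genes, intronless copies of their messenger RNAs. SET is a histone-binding protein that acts as a histone chaperone and as an inhibitor of histone acetylation and of the phosphatase PP2A, and its isoforms differ at the N terminus.

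A gene was said to have a peak where a peak overlapped the 1 kb on either side of either gene end. The promoters of the 4 members highest in order of peak support, among those with an entry in the RefSeq GRCm38.p6 promoter table, are shown. In the addback libraries the summits lay 36 to 104 bp before the start at Rpl37, Rps19bp1 and Rps7. At Rps18 they lay 185 to 277 bp before it, outside the stretch printed here. The promoters of Rpl10l and Rpl32l, paralogs without a peak in any library, stand beside these 4. Each runs from 100 bases before the annotated start to 20 bases from it, 5′ to 3′ on the strand of the gene, and capitals mark the ETS factor core CCGGAA on either strand (TTCCGG on the other).
Rpl37: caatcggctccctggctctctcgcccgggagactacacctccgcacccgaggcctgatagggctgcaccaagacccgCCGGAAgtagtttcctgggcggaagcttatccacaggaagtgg
Rps19bp1: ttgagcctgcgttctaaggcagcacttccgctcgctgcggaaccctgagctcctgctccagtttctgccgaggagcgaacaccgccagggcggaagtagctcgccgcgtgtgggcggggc
Rps18: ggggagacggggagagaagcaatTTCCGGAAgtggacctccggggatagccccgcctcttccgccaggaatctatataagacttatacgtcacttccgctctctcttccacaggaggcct
Rps7: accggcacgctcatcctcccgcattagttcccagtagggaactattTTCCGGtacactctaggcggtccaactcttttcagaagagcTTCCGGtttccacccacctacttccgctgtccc
Rpl10l: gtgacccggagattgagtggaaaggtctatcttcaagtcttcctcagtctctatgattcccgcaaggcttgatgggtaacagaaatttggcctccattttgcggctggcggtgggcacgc
Rpl32l: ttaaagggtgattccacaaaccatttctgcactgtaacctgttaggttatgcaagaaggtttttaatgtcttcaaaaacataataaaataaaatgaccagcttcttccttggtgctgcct
In GRCm38.p6 these stretches are chr15:5116513-5116632 on the plus strand (Rpl37), chr15:80264287-80264406 on the minus strand (Rps19bp1), chr17:33955646-33955765 on the minus strand (Rps18), chr12:28635934-28636053 on the minus strand (Rps7), chr12:66284382-66284501 on the minus strand (Rpl10l) and chr10:20208339-20208458 on the plus strand (Rpl32l). The core occurs once in Rpl37, once on each strand as an overlapping palindrome in Rps18 (counted as 2 matches) and 2 times in Rps7. It is absent from the printed stretches of Rps19bp1, Rpl10l and Rpl32l. Over the whole table entry, which covers 250 bases before to 50 after the start, the first 4 promoters hold 21 to 24 CpG dinucleotides, Rpl10l holds 13 and Rpl32l holds 3.

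SETα addback replicate 1 stood apart from the other libraries. In it a peak lay over the body of 49 of 277 ribosomal protein pseudogenes (17.7%), beside 495 of 9299 other pseudogenes (5.32%). In SETα addback replicate 2 the count was 1 of 277 (0.361%, beside 1.86% of other pseudogenes). The remaining 6 libraries gave 0 to 3 of 277. In replicate 1, 23 of the 49 reached a −log10 q of at least 5, and 0 did so in any other library. When the same intervals were moved by 20 kb to either side, the mean count in replicate 1 was 5. Among the members, the retrogenes Rps27rt (−log10 p 29.2) and Rpl37rt (−log10 p 15.4) had a peak in replicate 1 and in none of the other 7 libraries. Its part in the peaks that replicate 1 shows inside intact members was not tested, and counts per library below give each SETα addback replicate on its own.

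**Figure D1:**
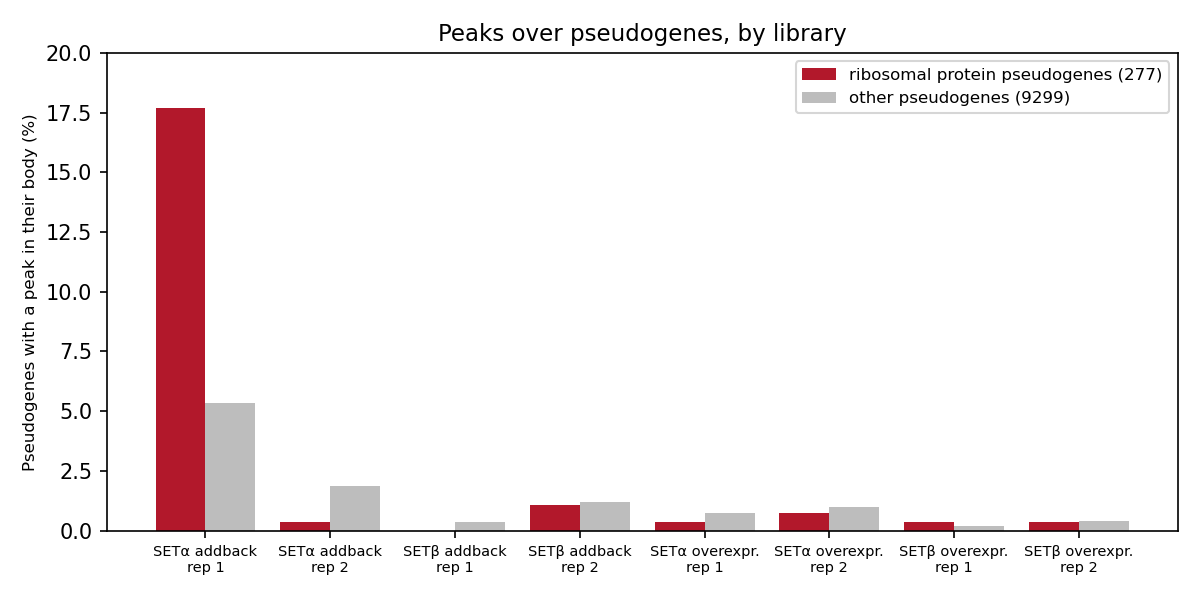
Percent of pseudogenes with a peak in their body, for 277 ribosomal protein pseudogenes (red) and 9299 other pseudogenes (grey) in each of the 8 libraries. The red bar of SETα addback replicate 1 is at 17.7%, and those of the other libraries are between 0 and 1.08%.

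In the addback cells most ribosomal protein genes had a peak with SETα and a smaller part with SETβ. A peak was found at 61 and 59 of the 78 genes in SETα addback replicates 1 and 2 (78.2% and 75.6%). In SETβ addback replicates 1 and 2 it was found at 21 and 36 (26.9% and 46.2%). In the overexpression libraries the counts were 0 and 6 with SETα and 0 and 9 with SETβ. All 4 addback libraries lay above all 4 overexpression libraries.

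Peak lists differed in length, from 22176 and 15701 peaks in the SETα addback lists through 2518 and 9768 for SETβ to 4807, 7675, 1343 and 2869 after overexpression, so each count was set against all protein-coding genes in the same list. Of all genes, 34.3% and 31.8% had a peak with SETα addback, and the SETβ lists gave 8.4% and 18.4%. The members' share exceeded that of all genes by 43.9 and 43.8 percentage points with SETα and by 18.5 and 27.8 points with SETβ. In the overexpression libraries with a member called, the background was 1.9% for SETα replicate 2 and 1.85% for SETβ replicate 2, against 7.69% and 11.5% of the members. No member had a peak in replicate 1 of either overexpression group, where 0.983% and 0.338% of all genes had one; 0 of 78 allows a share of up to 3.85% when 3 counts are taken as the limit and of up to 4.69% by the Wilson 95% interval. Chromosome 6, which holds 1 member, carried most of the SETα overexpression background: without it 0.105% and 0.867% of the remaining genes had a peak in SETα replicates 1 and 2, and the members called stayed at 0 and 6 of 77.

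The excess over all genes, in percentage points, was smaller where only stronger peaks were counted, and it was present in all 4 addback libraries at each level. The ratio of the members' share to that of all genes went the other way. In each of these libraries it was larger at a −log10 q of at least 5 than for all peaks. At a q of at most 0.05 the members called were 49, 46, 12 and 19 in SETα addback 1 and 2 and SETβ addback 1 and 2, beside 22%, 24.2%, 4.85% and 7.39% of all genes. At a −log10 q of at least 5 (called a strong peak below) they were 20, 11, 10 and 6, or 25.6%, 14.1%, 12.8% and 7.69%, beside 3.88%, 4.52%, 2.69% and 2.62% of all genes. Among the strongest 1343 peaks of each list, the number in the shortest list, they were 23, 12, 12 and 13, beside 4.65%, 5.73%, 5.33% and 4.93%. With equal numbers of peaks, SETα addback replicate 2 and both SETβ addback libraries thus held 12 to 13 members each, and replicate 1 of SETα held 23. No overexpression library had a member with a q of at most 0.05, beside 0.187% and 0.697% of all genes with SETα and 0.0208% and 0.104% with SETβ.

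**Figure D2:**
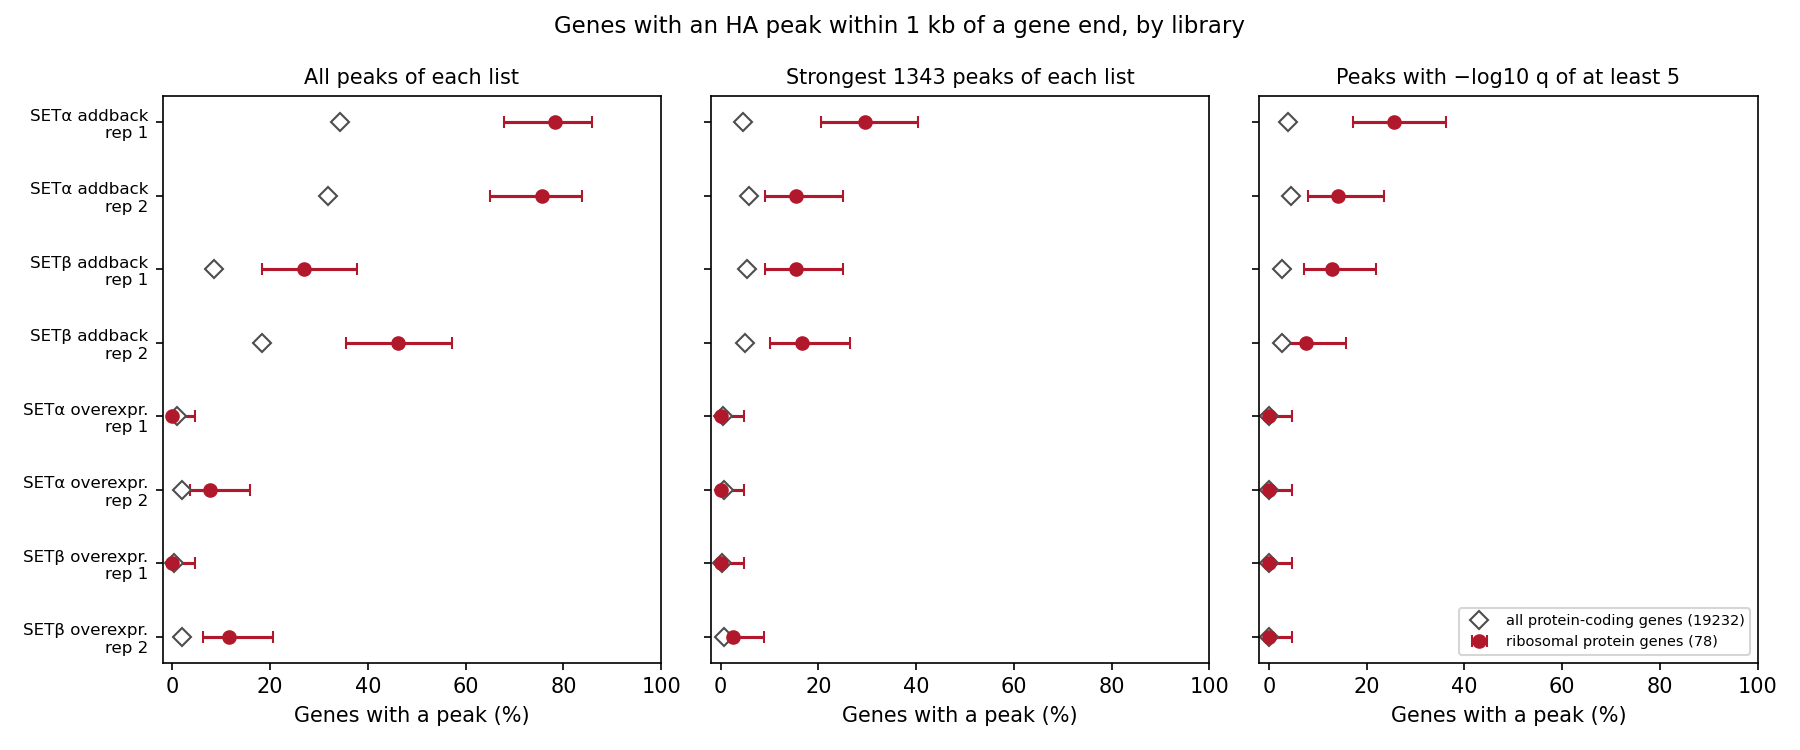
Percent of the 78 ribosomal protein genes (red, with Wilson 95% intervals, which cover counting error only) and of 19232 protein-coding genes (open diamonds) with a peak within 1 kb of a gene end, by library, for all peaks, the strongest 1343 peaks of each list and peaks with a −log10 q of at least 5. In all 3 panels the red points of the addback libraries lie to the right of the diamonds, from 78.2% against 34.3% in the first panel to 7.69% against 2.62% in the last.

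SETα and SETβ were compared across both SET backgrounds. The mean number of members with a peak was 60 ± 1.41 for SETα addback against 28.5 ± 10.6 for SETβ (SD, n = 2 each), and 3 ± 4.24 and 4.5 ± 6.36 with overexpression of SETα and SETβ (SD, n = 2 each). The mean difference between isoforms was 15 members, against a pooled SD between replicates of 6.58 (p = 0.278, exact two-sided permutation test over libraries within each background; the smallest p that 36 arrangements allow is 0.0556). Within the addback cells the difference was 31.5 members and the groups did not overlap (p = 0.333, exact, the smallest that 6 arrangements allow). The mean difference was 14.5 without SETα addback replicate 1 and 15.5 without replicate 2.

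Set against all genes in the same list, the isoforms differed by 9.23 percentage points (p = 0.278, exact permutation test), against a pooled SD of 5.39 points. In the addback cells alone the difference was 20.7 points without overlap (p = 0.333, exact, the smallest possible). For equal numbers of peaks the members in the addback libraries overlapped between isoforms, 23 and 12 against 12 and 13, and the mean difference over both backgrounds, 2 members, turned to −0.75 without SETα addback replicate 1. Where a summit had to lie within 250 bp of an annotated start, 22 and 24 of 61 members counted with SETα and 15 and 16 with SETβ, beside 19.4%, 18.9%, 5.9% and 10.5% of all genes. The excess over all genes was then 16.6 and 20.4 points with SETα and 18.7 and 15.8 points with SETβ. By that measure the isoforms overlapped in the addback cells. Over 1 kb windows the excess did not overlap for all peaks or at a q of at most 0.05, but it did for equal numbers of peaks (24.8 and 9.65 points with SETα against 10.1 and 11.7 with SETβ) and for strong peaks (21.8 and 9.58 against 10.1 and 5.08).

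Between SET backgrounds the difference was larger than the spread between replicates. Addback exceeded overexpression by 40.5 members on average, by 57 with SETα and by 24 with SETβ (p = 0.0556, exact two-sided permutation test, the smallest that 36 arrangements allow). In excess over all genes the difference was 30 points (p = 0.0556, exact, the smallest possible). The difference in members was 40 without SETα addback replicate 1 and 41 without replicate 2.

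A small set of members carried peaks far above the rest. At least 1 addback library had a strong peak at 26 members (33.3%, beside 5.8% of all genes). Without SETα addback replicate 1, the library with the pseudogene peaks, there were 14 (17.9%, beside 4.87%), and without replicate 2 there were 23 (29.5%, beside 4.38%), counts added after seeing the data. In all 4 addback libraries 5 members had one, Rpl29, Rpl37, Rps7, Rps18 and Rps19bp1, which is 6.41% of the 78 beside 2.16% of all genes. Rpl29, a large-subunit protein also described as a heparin-binding protein, had −log10 p values of 62.4 and 68.2 when SETα was added back and of 61.4 and 53.4 for SETβ. Its fold enrichments, the authors' ratio of peak signal to local background, were 16.4, 20.5, 12.0 and 11.5 in the same order. All 4 summits fell inside the gene (chr9:106428889-106431568), 555 to 596 bp from one end.

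Rpl37, a zinc-binding protein of the large subunit, had −log10 p values of 57.1 and 56.5 when SETα was added back and of 90.2 and 84.0 for SETβ. Its folds were 15.4, 17.9, 19.1 and 19.8, so both SETβ libraries exceeded both SETα libraries on this scale, which each list sets on its own. The summits lay 58 to 104 bp before the start of Rpl37 and 7 to 53 bp from an end of the neighbouring gene Card6, whose own gene end is 51 bp from that of Rpl37. The peak cannot be assigned to one of these genes.

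For Rps19bp1, also known as a regulator of the deacetylase SIRT1, −log10 p was 45.5 and 44.0 with SETα and 84.2 and 53.6 with SETβ, with folds of 13.2, 15.0, 18.4 and 14.5. Its summits lay 36 to 96 bp before the start. Rps7, a small-subunit protein mutated in some patients with Diamond-Blackfan anaemia, had −log10 p values of 45.5 and 41.3 with SETα and 53.3 and 39.8 with SETβ, with summits 40 to 53 bp before the start. Rps18, a protein of the head of the small subunit, had values of 49.3 and 56.5 with SETα and 68.7 and 35.8 with SETβ. Its summits lay 185 to 277 bp before the start and 71 to 163 bp from an end of Vps52, so this peak too stands between neighbouring genes.

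The deposited IDR lists, which keep peaks ranked alike in both replicates (irreproducible discovery rate, IDR), held few members. With SETα addback 6 of 78 members had an IDR peak (7.69%, Wilson 95% interval 3.57 to 15.8%, beside 2.77% of all genes), among them Rpl28, Rpl29, Rpl37, Rps14 and Rps19bp1. With SETβ addback there were 7 (8.97%, interval 4.42 to 17.4%, beside 2.62%): Rpl29, Rpl36a, Rpl37, Rps7, Rps14, Rps18 and Rps19bp1. The lists shared Rpl29, Rpl37, Rps14 and Rps19bp1. Rps7 and Rps18 are not in the SETα list, although both SETα libraries had strong peaks there. Neither overexpression list held a member, beside 0.0676% of all genes with SETα and 0.026% with SETβ.

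The weaker IDR members showed values of another order. Rps14, a small-subunit protein whose loss underlies the anaemia of 5q− syndrome, had −log10 p values of 10.9 and 12.9 when SETα was added back and of 12.0 and 8.59 for SETβ. Its values overlapped between isoforms. Rpl28 had 13.5 and 17.0 with SETα, 4.92 in SETβ replicate 1 and no peak in SETβ replicate 2. Rpl36a, a large-subunit protein at the site from which transfer RNA leaves, went the other way, with no peak and 5.70 with SETα and 15.0 in each SETβ library. Its IDR summit lay 30 bp before the start and 1996 bp from an end of Btk, the other gene with an end nearest to that summit. Another protein-coding gene has an end 107 bp from an end of Rpl36a.

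Both SETα addback libraries had a peak at 48 members (22% of all genes) and both SETβ addback libraries at 18 (5.84% of all genes). In all 4 addback libraries 15 members had a peak, 19.2% beside 5.14% of all genes, and 12 of these had none in an overexpression library (4.7% of all genes). Besides those named above they included Rpl5, Rpl7l1, Rpl10a, Rplp0, Rps10, Rps20, Rps26 and Rps27. Rps26, another gene of Diamond-Blackfan anaemia, was the strongest of those named here by its mean percentile within the lists, with −log10 p values of 8.41 and 8.20 with SETα and 15.6 and 6.32 with SETβ and summits 209 to 359 bp before the start. Rpl5, which with Rpl11 and 5S ribosomal RNA binds Mdm2, had the lowest mean percentile of those named here, with 5.44, 9.09, 2.85 and 3.13. Rplp0, the base of the ribosomal stalk, had 7.63, 5.70, 2.69 and 5.59; the first of these summits lay 1170 bp beyond the far end of the gene and 218 bp from an end of Gcn1, the others within 375 bp of the start. At Rpl7l1 the strongest peak lay beyond the far end of the gene in both SETα libraries, 1 and 174 bp from an end of 2310039H08Rik, and at its start in both SETβ libraries, 91 and 241 bp upstream. In 5 of the 15 members the summits of the 4 libraries spanned more than 1 kb (Rpl7l1, Rpl10a, Rplp0, Rps10 and Rps20), so the count of 4 libraries there joins peaks at different places.

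**Figure D3:**
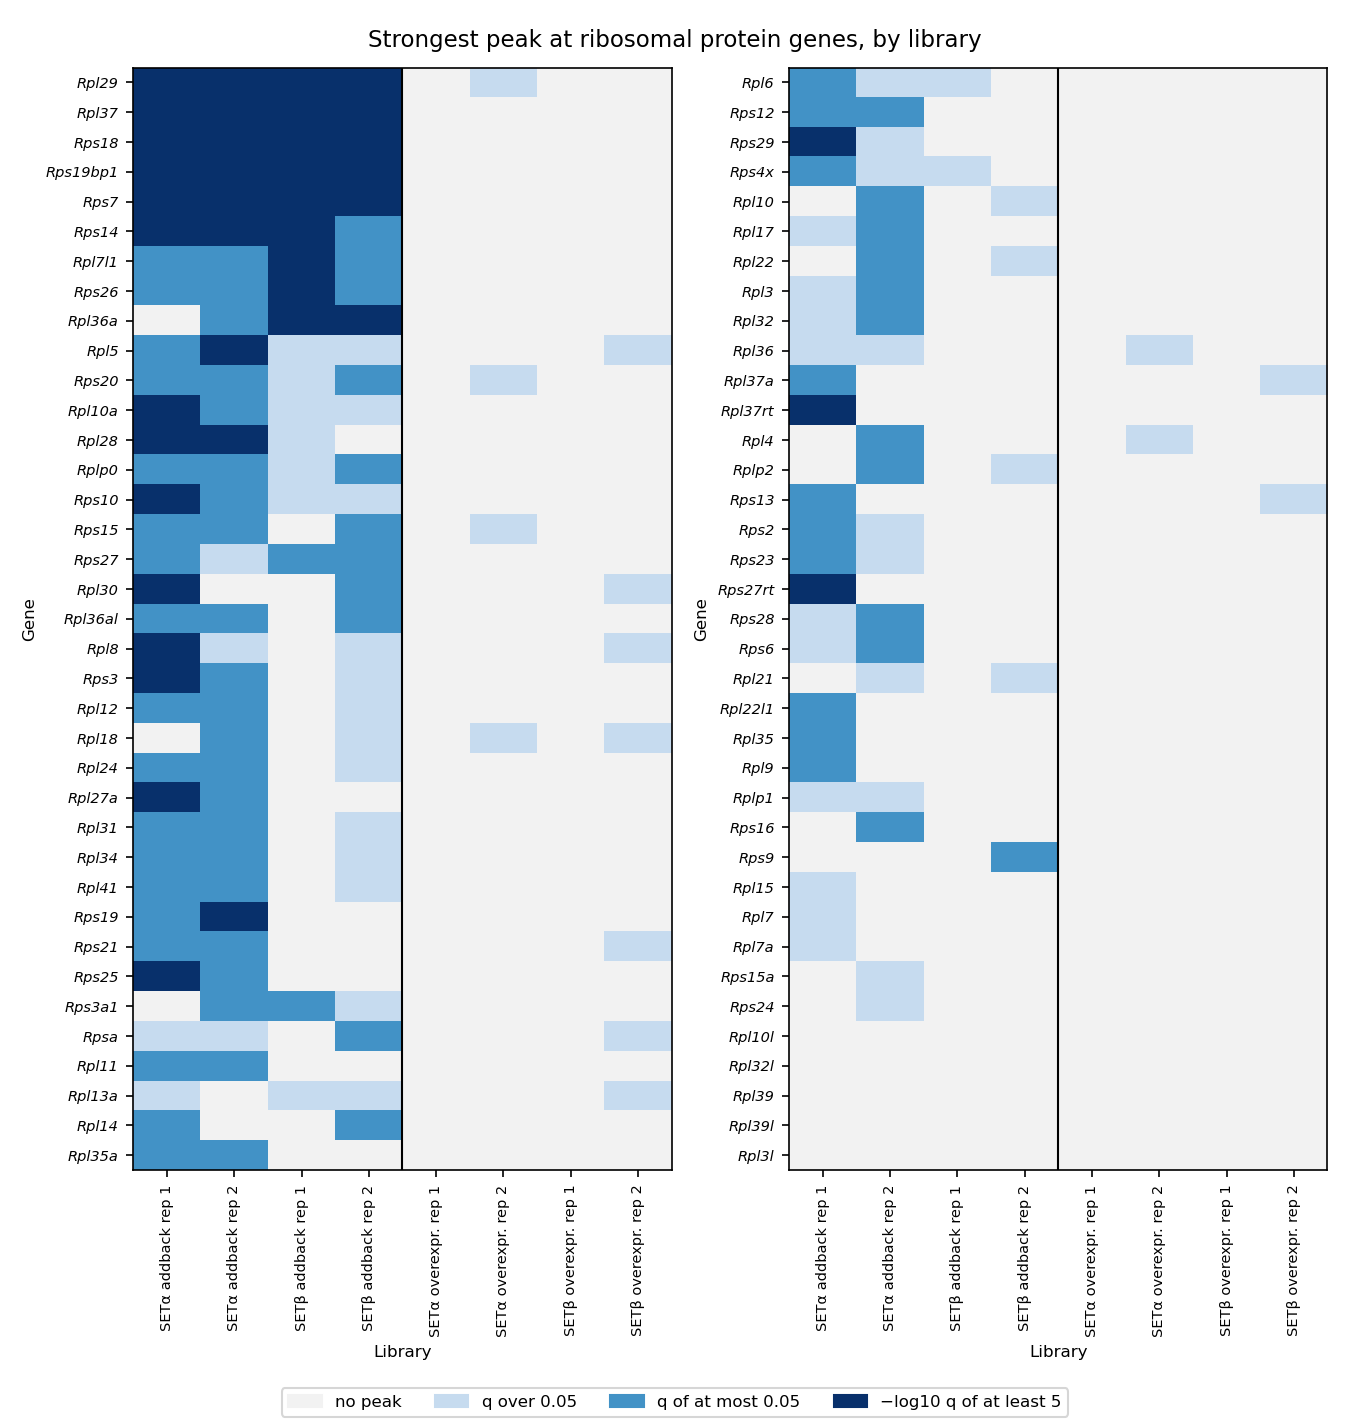
Strongest peak within 1 kb of a gene end for 74 of the 78 genes (rows, in 2 panels) in the 8 libraries (columns), shaded by the q of the peak; grey means no peak. Only 5 rows (Rpl29, Rpl37, Rps18, Rps19bp1 and Rps7) are darkest in all 4 addback libraries, and no overexpression library has a peak with a q of at most 0.05.

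Peaks with SETα alone were frequent and weak. Both SETα addback libraries and neither SETβ addback library had a peak at 20 members (25.6% beside 10.1% of all genes), and the opposite pattern was found at 0 members (0.187% of all genes). The first 8 by symbol were Rpl3, Rpl11, Rpl17, Rpl27a, Rpl32, Rpl35a, Rpl36 and Rplp1. Rpl11 had −log10 p values of 4.77 and 4.60 in SETα replicates 1 and 2. Rpl3, which reaches towards the peptidyl transferase centre, had 4.01 and 4.89. Rpl35a had 4.77 and 6.50, and Rplp1, a stalk protein, had 4.40 and 3.90. Rpl27a, with 11.8 and 5.70, was the only one of the 8 above the 6.50 of Rpl35a in either library. The SETβ lists are the shorter ones, and a gene listed with one isoform and not the other is not shown to differ between them. Over all 78 genes, 5 had a peak in no addback library (73 had one in at least 1, beside 47.5% of all genes; 63 without SETα replicate 1, beside 38.2%, and 69 without SETα replicate 2, beside 40.3%), 15 in 1, 27 in 2, 16 in 3 and 15 in 4.

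Strong peaks in the SETα addback cells differed between the replicates. Both replicates had one at 8 members (10.3%, beside 2.88% of all genes), among them Rpl28, Rpl29, Rpl37, Rps7, Rps14, Rps18 and Rps19bp1. Of the 2, replicate 1 alone had one at 12 others (15.4%, beside 1% of all genes), and in 11 of these the summit lay inside the gene. They included Rpl8, Rpl10a, Rpl27a, Rpl30, Rpl37rt, Rps3, Rps10, Rps25, Rps27rt and Rps29. Rpl8, for example, had a −log10 p of 20.3 in replicate 1 and 2.58 in replicate 2, and Rps3 had 14.5 and 4.93. Replicate 2 alone had a strong peak at 3 members (3.85%, beside 1.64% of all genes), Rpl5 and Rps19 among them. Replicate 1 is the library in which 49 pseudogenes of the family had peaks.

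By subunit, peaks were spread over both. Among the 68 members that are neither paralogs nor Rps19bp1, 30 and 28 of 38 large-subunit genes and 25 and 28 of 30 small-subunit genes had a peak in SETα addback replicates 1 and 2. In SETβ addback replicates 1 and 2 the counts were 9 and 20 of 38 and 10 and 13 of 30. The small subunit had the larger share in 3 of the 4 addback libraries and the lower share in SETβ replicate 2 (43.3% against 52.6%).

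In the overexpression cells 14 members had a peak in at least 1 library (17.9% beside 3.68% of all genes), and none of these peaks reached a q of 0.05. The highest −log10 q was 0.50 with SETα and 0.02 with SETβ. Rpl18 alone was listed in 2 overexpression libraries, with −log10 p of 4.14 in SETα replicate 2 and 3.04 in SETβ replicate 2. Rpl4, Rpl29, Rpl36, Rps15 and Rps20 were listed with SETα and Rpl5, Rpl8, Rpl13a, Rpl30, Rpl37a and Rps13 with SETβ, followed by Rps21 and Rpsa with SETβ. At Rpl29 the overexpression peak (−log10 p 4.12) had its summit at position 106431186, 382 bp from the far end of the gene, and not where the addback summits lay (106429444 to 106429485). None of the 61 members with a known start had an overexpression summit within 250 bp of it, beside 0.207% and 0.452% of genes with SETα and 0.0904% and 0.355% with SETβ, with or without a peak. Among members with a peak and a known start this was 0 of 3 in SETα replicate 2 and 0 of 7 in SETβ replicate 2, beside 11.8% and 15.1% of such genes, counts too small to show a difference.

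Without a peak in any library were 5 members, 6.41% beside 51.7% of all genes: Rpl3l, Rpl10l, Rpl32l, Rpl39 and Rpl39l. Of these, 4 are paralogs, and Rpl39 is the one member of the standard set. Rpl3l is known from heart and skeletal muscle, and Rpl10l and Rpl39l from the testis. Of the other 5 paralogs, Rpl7l1 and Rpl36al had peaks in 4 and 3 addback libraries, and Rpl22l1, Rpl37rt and Rps27rt in SETα addback replicate 1 alone. Rps9 was listed in SETβ addback replicate 2 alone, with a −log10 p of 8.90.

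Summits were placed relative to the nearest annotated start for the 61 members with an entry in the promoter table. In SETβ addback replicate 1, 14 of 17 summits (82.4%) lay within 250 bp of the start, with a median of 62 bp upstream; the share over all genes with a peak there was 60.7%. The other addback libraries gave 18 of 45 (40.0%) and 19 of 44 (43.2%) with SETα and 14 of 29 (48.3%) in SETβ replicate 2, near the 43.0%, 46.0% and 46.7% of all genes. The SETα replicates had their remaining summits in different places, with no test made. In replicate 1, 23 (51.1%) were over 250 bp downstream and 4 (8.89%) over 250 bp upstream, beside 36.6% and 20.4% of all genes with a peak. In replicate 2 the counts were 14 (31.8%) and 11 (25%), near the 32.8% and 21.1% of all genes. Strong peaks were at 11, 10, 6 and 20 members in SETα replicate 2, SETβ replicate 1, SETβ replicate 2 and SETα replicate 1. The start was known for 7, 7, 5 and 12 of them, which leaves out Rpl29. Among those, the summit lay within 250 bp of the start at 7 of 7, 7 of 7, 4 of 5 and 6 of 12. The same share for strong peaks over all genes was not counted.

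**Figure D4:**
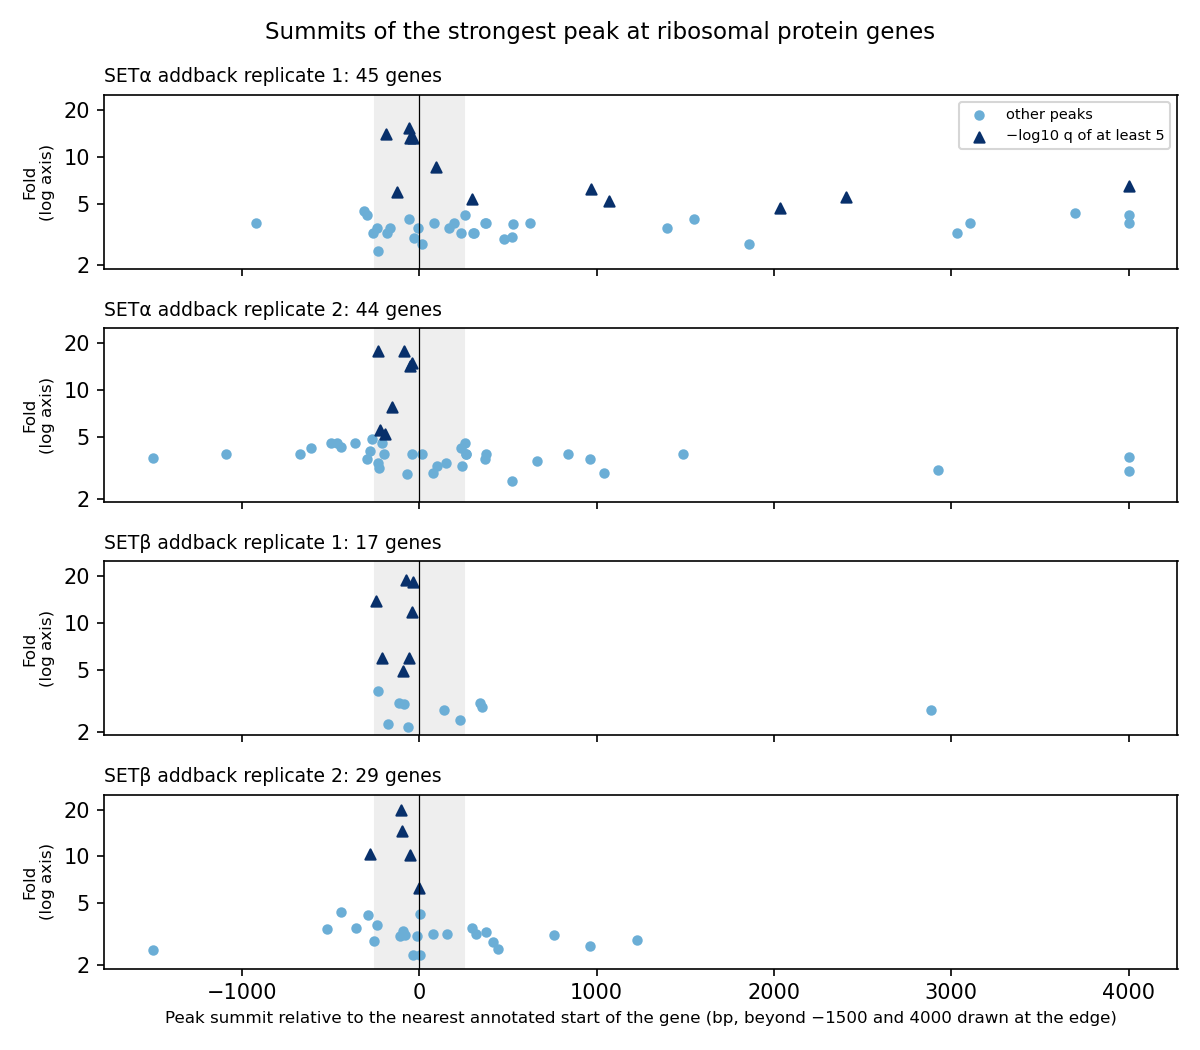
Position of the summit of the strongest peak relative to the nearest annotated start (x axis, bp, drawn in the direction of transcription; the grey band marks 250 bp on either side) and fold (y axis, log scale) for ribosomal protein genes in the 4 addback libraries; triangles are peaks with a −log10 q of at least 5. Only genes with a known start are drawn, which leaves out Rpl29. Triangles gather at the start in 3 libraries, and in SETα addback replicate 1 only 6 of 12 lie within the band.

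Within each list the members' peaks were not uniformly stronger than those of other genes. The median percentile of −log10 p within the list was 86.4 for members and 66.4 for all genes with a peak in SETα addback replicate 1, and 68.3 and 68.1 in replicate 2. It was 70.1 and 60.4 in SETβ replicate 1 and 80.7 and 65.8 in SETβ replicate 2. Median folds of the members were 3.73, 3.90, 3.68 and 3.22 in this order.

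Ribosomal protein genes are short and often close to another gene. Their median length was 3179 bp, against 17402 bp over all protein-coding genes, and 39 of 78 (50.0%) had an end of another protein-coding gene within 2 kb, against 30.9%. Of the 39 without such a neighbour, 28 and 28 had a peak in the SETα addback lists and 10 and 15 in the SETβ lists, beside 26.7%, 24%, 5.75% and 13.7% of genes of that kind. Of the 39 with one, 33, 31, 11 and 21 had a peak, beside 51.2%, 49.3%, 14.3% and 28.8%. The members stood above all genes in both classes. Of the 26 members that host a snoRNA gene, 19, 21, 6 and 12 had a peak, and of the other 52 members 42, 38, 15 and 24. Over all genes the shares were 34.3%, 31.8%, 8.4% and 18.4%. Other genes that host a snoRNA were not counted apart.

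Members' promoters were richer in CpG than those of other genes, with a median of 22 CpG in 300 bases against 13. Among genes with at least 15 CpG, a limit chosen after the data were seen, 37, 36, 15 and 27 of 48 members had a peak in SETα addback 1 and 2 and SETβ addback 1 and 2, beside 55.6%, 53.1%, 14.8% and 30.8% of 7186 genes. Among those with fewer, 8, 8, 2 and 2 of 13 had one, beside 15.9%, 14%, 3.08% and 7.85% of 8309. Members lay above other genes in each class and library. In the CpG-rich class the distance in the SETα libraries (77.1% and 75% of members) was smaller than over all genes.

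Letters of the 61 promoters were searched on both strands over 300 bases, and an overlap with another motif was allowed. The ETS core CCGGAA occurred in 31 (50.8%), against 20.5% of 15495 promoters. It was in 8 of 11 promoters of members with a peak in all 4 addback libraries, in 21 of 45 of those with 1 to 3 and in 2 of 5 of those with none. The YY1 core AANATGGC was in 13 (21.3% against 7.26%), the ZBTB33 palindrome in 5 (8.20% against 0.742%) and the NRF1 palindrome in 6 (9.84% against 6.93%). A GC box (GGGCGG) was in 35 (57.4% against 48.5%) and a TATA box (TATAAA) in 8 (13.1% against 14.8%). The TOP form, a C at the annotated start followed by 4 pyrimidines, was found in 14 (23.0% against 2.68%). These are matches of letters and were not tested as sites.

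Genes of neighbouring steps were counted in the same way. Of all genes, 34.3%, 31.8%, 8.4% and 18.4% had a peak in SETα addback 1 and 2 and SETβ addback 1 and 2. An IDR peak was at 2.77% of all genes with SETα addback and at 2.62% with SETβ addback. Of 21 genes for translation factors and other TOP messenger RNAs, 15, 14, 5 and 9 had a peak (71.4%, 66.7%, 23.8% and 42.9%). An IDR peak was found at 2 with each isoform (9.52%). They include Eef1b2, an exchange factor of elongation, with −log10 p values of 58.4, 49.5, 86.8 and 50.9. Of 55 ribosome biogenesis genes, which process and assemble ribosomal RNA and proteins, 35, 37, 19 and 26 had a peak (63.6%, 67.3%, 34.5% and 47.3%). Of these 55, 8 and 11 had an IDR peak (14.5% and 20%). Bms1, a GTPase of small-subunit assembly, had 103, 102, 112 and 73.9, and Utp3 had 73.5, 45.1, 85.2 and 55.6. Of 65 mitochondrial ribosomal protein genes, 40, 36, 19 and 29 had a peak (61.5%, 55.4%, 29.2% and 44.6%). Of these 65, 13 and 14 had an IDR peak (20% and 21.5%), such as Mrpl21 with 100, 83.8, 133 and 117. In the SETα addback libraries the cytoplasmic ribosomal protein genes had the largest share of these 4 lists, 78.2% and 75.6%. In the SETβ addback libraries they had 26.9% and 46.2%, below the 34.5% and 47.3% of the ribosome biogenesis genes and, in replicate 1, the 29.2% of the mitochondrial ribosomal protein genes. Their share with an IDR peak (7.69% and 8.97%) was the lowest of the 4. All 4 lists lay above all genes in each addback library and in both addback IDR lists. The differences between lists were not tested.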

How the data were processed

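The deposited files are peak lists made by the authors, separately for each library, in narrow peak layout without headers. The submitters' processing notes name Bowtie2, MACS2 and deepTools and the builds GRCm38 and mm10, without versions or roles. The control library, read totals and excluded regions are not given in the sources used here, so depth is unknown. Per the deposited lists, column values are a score, a fold (linear ratio to local background), −log10 p and −log10 q. In the deposited IDR lists each merged peak has a −log10 p, the lower of its replicates' values, and a −log10 IDR; the highest IDR was 0.05.

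Peaks were joined to genes of RefSeq GRCm38.p6 with Python 3.11.15 and pandas 2.3.3. Starts came from the promoter table, which held 61 of the 78 members and 15495 of all genes; the other 17 have no strand here. Chromosomes 8 and 11 were not analysed, and 3 mitochondrial peaks were left out. Members and lists were chosen with earlier results of these data known. Groups were compared over libraries with exact two-sided permutation tests. Named were members with an IDR peak, with no peak, with an overexpression peak (up to 12 each) or with a peak in both libraries of one addback group and neither of the other (first 8 by symbol). Genes outside this rule were chosen after their values were seen. Alternatives varied the window, peak strength, neighbours, paralogs, gene start and libraries. Some members are counted but not reported here by name. Joining code was tested on simulated lists.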

Additional observations from a re-analysis of the deposited data

Results flagged for a closer look

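A signal appeared outside the genes compared: in SETα addback replicate 1, peaks lay over 49 of 277 ribosomal protein pseudogenes, against 1 in SETα addback replicate 2 and 0 to 3 in the other 6 libraries. The 49 carry 35 different gene stems, and 46 are named as pseudogenes by a "-ps" suffix. Their median −log10 p was 7.87, and the highest was 24.5 at Rps18-ps5. Other pseudogenes also had peaks most often in this library (5.32%, against 0.172% to 1.86% in the other 7). Without this library the mean difference between isoforms was 14.5 members and that between SET backgrounds was 40.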

How the results depend on the processing

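Both differences in the number of members with a peak, and both in excess over all genes, kept their direction under all 13 alternatives run with all 8 libraries, including peak strength, window, neighbours and paralogs. The replicate block is counted among these 13, but it changes only the test and could not alter a difference. Within the overexpression cells alone, SETα minus SETβ was −1.5 members for all peaks and was positive under no alternative. The isoform difference ranged from 2 members (equal numbers of peaks) to 16, and the excess difference from 0.591 (summit within 250 bp of a gene start, chosen after seeing the data) to 11.9 points. With equal numbers of peaks the isoform difference turned to −0.75 members and −1.30 points without SETα addback replicate 1, so its direction there rests on that library. With the summit within 250 bp of a start the excess difference turned to −0.35 and −0.14 points without replicate 2 of SETα and of SETβ addback. These combinations were added after seeing the data, and under no other alternative did leaving out 1 library turn a difference. The difference between SET backgrounds ranged from 11.75 to 43 members and from 11.7 to 33.1 points. For all peaks, leaving out 1 library at a time gave 11.25 to 18.75 members and 6.72 to 11.7 points between isoforms, and 36.75 to 44.25 members and 27.5 to 32.5 points between backgrounds. The number of members with an IDR peak fell from 6 to 3 with SETα addback and from 7 to 3 with SETβ addback among genes without another gene end within 2 kb. With the gene start only it was 3 with SETα addback, and with the summit within 250 bp of a start it was 3 and 4. Fewer genes enter these alternatives: 39 members had no other gene end within 2 kb, and a start was known for 61.

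Labels give the same replicate numbers to each group but do not say that a number marks a shared culture. Deviations of same-numbered libraries correlated between groups at −0.0018 to 0.0281 over 19232 genes. A replicate block changes only the test and leaves each difference as it was. For the isoform differences of 15 members and 9.23 points the exact permutation test then gave p = 0.5. For the background differences of 40.5 members and 30 points the exact test gave p = 0.125, the smallest that 16 arrangements allow. With 2 libraries a group no exact test here could reach a p under 0.05, and without read totals the weak peaks cannot be set against depth.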
